A study of Arabidopsis thaliana with 6 samples.

Results

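The 40S particle is the small subunit of the cytosolic ribosome, and the genes that encode its proteins SA and S2 to S19 are described here in phloem sap and phloem tissue of Arabidopsis thaliana. The list holds 54 genes for 21 proteins. A gene counted as measured where the array annotation gave it a probe set of its own, and 29 genes of 15 proteins met that rule, each with 1 such probe set, of 13286 genes measured in this way on the array. Of the other 25 genes, 8 lie only on probe sets shared with further genes and 17 have none named in the annotation used, so SA, S5, S6, S15a, S16 and S18 were not analysed here.

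The study hybridized poly-A RNA to 6 ATH1 arrays from Affymetrix. Phloem exudate accounts for 3 of them, and the other 3 hold tissue cut out with a laser and catapulted into a tube (LMPC, called LMPC phloem below). Exudate is the fluid that leaves cut sieve tubes, drawn here by the EDTA technique, in which calcium is bound so that the tubes keep flowing. All plants grew until flowering with 8 h of light per day at 22 °C and nights at 16 °C. No ecotype is named in the sources used here, nor whether each replicate had its own plants, so a p-value covers the spread of these samples alone, which may be technical. Linear amplification was used for the exudate RNA, and a BD-SMART kit that ran 10 PCR cycles ahead of in vitro transcription for that of LMPC phloem, so kit and sample type cannot be told apart in any comparison below.

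In the cytosol, the small subunit binds the mRNA, reads its codons and scans for the start codon, and then joins the large 60S subunit. Its proteins clothe an rRNA core whose parts are called head, beak, platform and body. Plants keep several genes for nearly every ribosomal protein, and in Arabidopsis the loss of a single such gene can slow growth or change leaf shape. Mature sieve elements lose their nucleus and most of their ribosomes, while the companion cells beside them keep both.

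The deposited values are MAS5 signals, 1 linear intensity per probe set. Testing was limited to probe sets that exceeded the 40th percentile of an array on 3 or more of the 6. The median signal of an array was 8.80 to 10.3 for exudate, against 13.4 to 15.8 for LMPC phloem, so the medians of the arrays were not equal. The hybridization controls, bacterial and phage transcripts added in fixed amounts, averaged 8.45 to 9.45 (log2 signal) on exudate arrays and 10.0 to 10.6 on LMPC arrays. The ratio of the 3' to the 5' probe set, a measure of how far amplified RNA is cut short, was 5.99 to 34.7 in exudate and 36.8 to 48.6 in LMPC phloem for GAPDH, but 12.5 to 73.4 in exudate and 4.87 to 6.63 in LMPC phloem for actin. For ubiquitin it was 6.24 to 8.94 in exudate and 8.62 to 10.5 in LMPC phloem, so the 3 transcripts did not point one way. The part that these differences had in the results below was not tested.

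Of the 29 measured genes, 28 were tested, and 26 of them had a signal above the 75th percentile of the array on all 6 arrays. The 40S genes were thus mostly bright in sap and tissue alike. Limma called 6 of the 28 higher and 2 lower in exudate, at a Benjamini-Hochberg adjusted p under 0.05 over all tested probe sets. Over all 15356 tested probe sets, 8.49% were called higher and 16.6% lower. Differences are given as exudate minus LMPC phloem, in units of log2(signal + 16), which understates the change of dim genes. Their median over the 28 genes was 0.47, against -0.27 for all tested probe sets, and 19 were positive and 9 negative. Fewer cells of a type and less RNA per cell cannot be told apart in such bulk samples.

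The members were brighter than most of the array, so they were also set beside probe sets of like brightness, a comparison chosen after seeing the data. Among the 1012 tested probe sets whose mean log2 signal lay within the interquartile range of the members, 22.7% were called higher and 26.9% lower, with a median difference of -0.07. The 14 members in that range had 3 higher and 2 lower calls and a median of 0.40. The 21.4% of all members that were called higher are therefore close to what probe sets of like brightness gave. Lower calls were 7.14% of all members, and 2 of the 14 in that range, against 26.9% of the probe sets of like brightness. Only 14 of the 28 members lay in that range.

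Exudate array 3 was brighter than the other exudate arrays, more so among its bright probe sets. Its median signal was 10.3 against 8.8 and 9.4 on exudate arrays 1 and 2, and its 75th percentile 30 against 21.9 on both. The trimmed mean signal was 27.3 against 18.3 and 17.4, and the 60S genes had a median signal of 288 there against 167 and 165. The 40S genes shared this. Exudate array 3 gave the highest signal of the 3 for 25 genes, and exudate array 2 the lowest for 20. The median signal of the 28 genes was 177, 187 and 373 on exudate arrays 1, 2 and 3, against 156, 146 and 157 on LMPC arrays 1, 2 and 3. Divided by the median signal of the array, these came to 20.1, 19.9 and 36.3 in exudate and 9.87, 9.93 and 11.7 in LMPC phloem. On both scales every exudate array lay above every LMPC array. The undivided 60S medians did the same, with 142, 152 and 133 on LMPC arrays 1, 2 and 3.

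**Figure D1:**
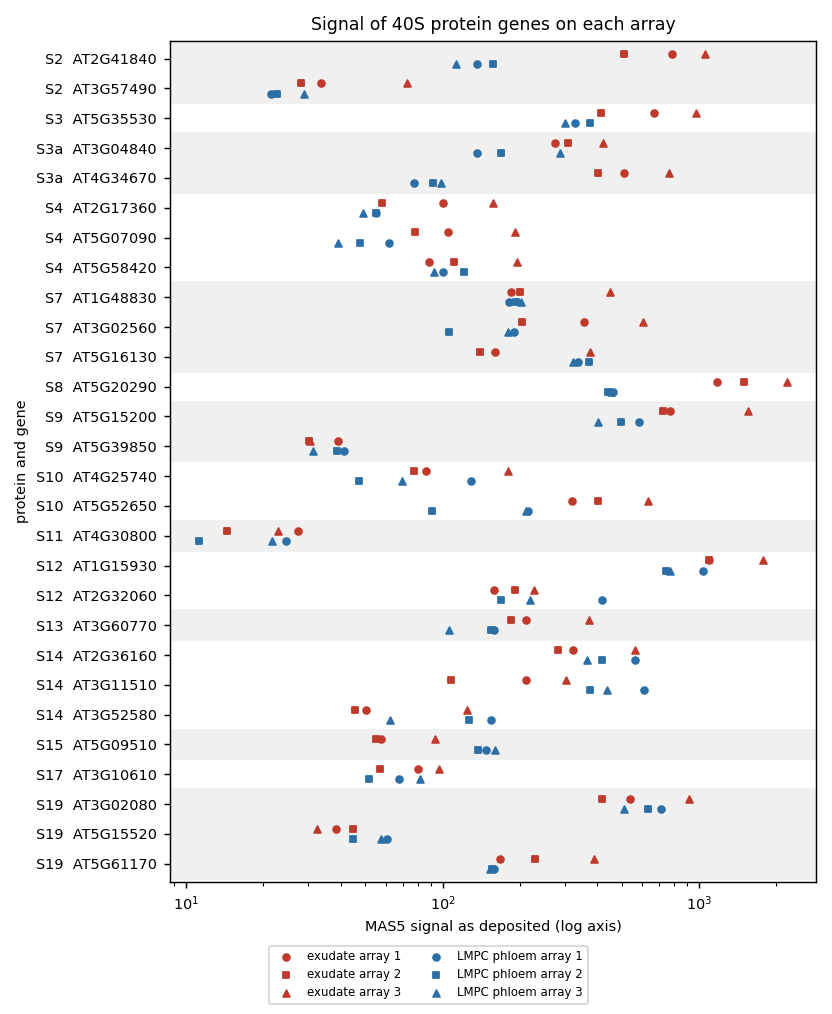
MAS5 signal of the 28 tested 40S protein genes on a log axis, with 1 point per array, exudate in red above LMPC phloem in blue for each gene, and shaded bands that group the genes of a protein. Exudate lies fully to the right of LMPC phloem for 12 genes, most widely for AT2G41840 (S2), AT4G34670 (S3a) and AT5G20290 (S8), and fully to the left for 2.

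S2, S3 and S9 line the channel through which mRNA enters the subunit. The S2 gene AT2G41840 had a signal of 784, 509.8 and 1057 on the exudate arrays, against 136, 157 and 113 on the LMPC arrays. Every exudate value lay above every LMPC value. The log2 difference was 2.35 with a standard error of 0.33 (limma, adjusted p = 3.65e-05). Its paralog AT3G57490 had 33.5, 28 and 72.9 in exudate against 21.5, 22.7 and 28.8 in LMPC phloem, with overlapping groups and a difference of 0.52 (adjusted p = 0.258).

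The S3 gene AT5G35530 had 668, 415 and 974 in exudate against 327, 374 and 299 in LMPC phloem. The groups did not overlap, yet the difference of 0.93 just missed the threshold (limma, adjusted p = 0.0501). The same held for the S9 gene AT5G15200, with 766.5, 722 and 1552 in exudate against 582, 496 and 402 in LMPC phloem and a difference of 0.94 (limma, adjusted p = 0.0509). The other S9 gene, AT5G39850, had 39.2, 30.1 and 30.5 in exudate against 41.4, 38.7 and 31.3 in LMPC phloem, a difference of -0.11. The groups of that gene overlapped.

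S3a and S14 sit on the platform, where mRNA leaves the subunit. AT4G34670, an S3a gene, gave 508, 405.0 and 763 in exudate against 77.4, 91.3 and 98.4 in LMPC phloem. This was the largest difference of the 28 genes, 2.41 with a standard error of 0.32 (limma, adjusted p = 2.05e-05). Its paralog AT3G04840, also an S3a gene, had 273, 308 and 422 in exudate against 137, 169 and 287 in LMPC phloem. Exudate array 1 lay below LMPC array 3 for that gene, and its difference of 0.76 was not called (limma, adjusted p = 0.106).

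The 3 S14 genes had negative differences as deposited, and positive ones (0.08 to 1.08) after scaling to the hybridization controls. AT3G11510 had 212, 108 and 303 in exudate against 611, 374 and 438 in LMPC phloem, without overlap. The difference was -1.21, with a standard error of 0.36 (limma, adjusted p = 0.0191). Its call was lost without exudate array 2 (-0.83), without LMPC array 1 (-1.02), without the filter (adjusted p = 0.0715) and with a pseudocount of 1 (adjusted p = 0.14).

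The S14 paralog AT2G36160 had 322, 283 and 562 in exudate against 561, 417 and 365 in LMPC phloem (-0.24, limma adjusted p = 0.639). AT3G52580, the last S14 gene, had 50.2, 45.4 and 125 in exudate against 155, 126 and 62.4 in LMPC phloem (-0.58, limma adjusted p = 0.276). For both genes the groups overlapped through exudate array 3, which for AT3G52580 exceeded only LMPC array 3, the lowest of its LMPC values. In the RefSeq gene order of assembly TAIR10.1, AT2G36160 and AT3G52580 each stand beside a gene for the large subunit protein L40, which was not analysed here.

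S15 is a protein of the head that reaches towards the incoming tRNA. Its measured gene, AT5G09510, had 57.4, 54.9 and 93.4 in exudate against 147, 137 and 160 in LMPC phloem. All exudate values lay below all LMPC values, and the difference was -0.98 with a standard error of 0.31 (limma, adjusted p = 0.026), although it was 0.18 after scaling to the hybridization controls. The call held without exudate array 3 and was lost without any other single array, where the difference lay between -1.03 and -0.87. It was also lost with a pseudocount of 1 (adjusted p = 0.143) and with a trend in eBayes (adjusted p = 0.0541).

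S10, S12, S17 and S19 belong to the head and its beak. The S10 gene AT5G52650 had 319, 402 and 632 in exudate against 214, 90.8 and 211 in LMPC phloem. It was higher by 1.34 with a standard error of 0.36 (limma, adjusted p = 0.0111), and not called without LMPC array 2, its lowest value (0.98, adjusted p = 0.075), without the filter (adjusted p = 0.0571) or with a pseudocount of 1 (adjusted p = 0.109). AT4G25740, the other measured S10 gene, had 85.9, 77.3 and 181 in exudate against 128, 47.4 and 69.6 in LMPC phloem (0.42, adjusted p = 0.429).

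For S12, AT1G15930 had 1089, 1088 and 1779 in exudate against 1035, 744 and 770.5 in LMPC phloem, and AT2G32060 had 158, 191 and 228 in exudate against 420 on LMPC array 1 and 169 and 219 on LMPC arrays 2 and 3. The groups overlapped for AT2G32060 (-0.37) and not for AT1G15930 (0.60), and neither gene was called. The S17 gene AT3G10610 differed by 0.17 with overlapping groups.

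None of the 3 S19 genes was called. AT3G02080 had 537, 417 and 911 in exudate against 712, 634 and 507 in LMPC phloem (-0.05). AT5G15520 had 38.5, 44.7 and 32.4 in exudate against 60.9, 44.5 and 57.7 in LMPC phloem (-0.37). In these 2 genes the groups overlapped. AT5G61170 had 168, 229.7 and 389 in exudate against 159, 156 and 153 in LMPC phloem (0.62), without overlap.

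S4, S7, S8, S11 and S13 are proteins of the body. The S8 gene AT5G20290 gave 1168.5, 1490.3 and 2199 in exudate against 462, 441 and 454 in LMPC phloem. Its difference was 1.76 with a standard error of 0.32 (limma, adjusted p = 0.000517), and the LMPC values lay within a narrow range. The second S8 gene, AT5G59240, was the 1 measured member that was too dim to be tested. It had 0.90, 9.20 and 26.9 in exudate against 4.86, 3.33 and 2.10 in LMPC phloem.

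Among the S7 genes, AT3G02560 had 356, 203 and 606 in exudate against 190, 106 and 179 in LMPC phloem, higher by 1.12 with a standard error of 0.37 (limma, adjusted p = 0.0334). AT5G16130 had 160, 139 and 374.5 in exudate against 338, 371 and 321 in LMPC phloem. Exudate array 3 lay above the LMPC arrays and the other exudate arrays below them, and the difference was -0.70 (limma, adjusted p = 0.153). Without exudate array 3 it was called lower (-1.12, adjusted p = 0.0186). AT1G48830 had 185, 201 and 448 in exudate against 182, 193 and 201 in LMPC phloem, with overlapping groups and a difference of 0.39.

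The S4 gene AT5G07090 had 105, 78.1 and 192 in exudate against 61.6, 47.6 and 38.9 in LMPC phloem, higher by 1.04 with a standard error of 0.34 (limma, adjusted p = 0.0303). AT5G07090 was no longer called when exudate array 1 (1.11), exudate array 3 (0.72), LMPC array 2 (1.03) or LMPC array 3 (0.93) was left out. AT3G02560 was no longer called when exudate array 1 (1.12), exudate array 3 (0.75) or LMPC array 2 (0.89) was left out. Both calls were also lost without the filter and with a pseudocount of 1 or 64, and that of AT3G02560 with a trend in eBayes. Each of these 2 genes was called in 7 of the 14 other settings. Of the other S4 genes, AT2G17360 had a difference of 0.73 (adjusted p = 0.123) without overlap of the groups, and AT5G58420 had 88.3, 111 and 195 in exudate against 101, 121 and 92.6 in LMPC phloem (0.23), with overlap. The S13 gene AT3G60770 did not overlap between the groups and was not called (0.76, adjusted p = 0.1), and the S11 gene AT4G30800 had 27.4, 14.5 and 22.8 in exudate against 24.5, 11.2 and 21.6 in LMPC phloem (0.10).

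Over the 28 genes, the 3 exudate arrays all lay above the 3 LMPC arrays for 12 and below them for 2. Of all tested probe sets 12.1% lay above and 27.7% below, and of those in the brightness range used above 26.4% and 28.7%. Only 14 of the 28 genes lay in that range, so its shares are not matched in brightness to all of the 12. Besides the 6 genes called higher, these 12 held 6 genes that the test did not call.

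**Figure D2:**
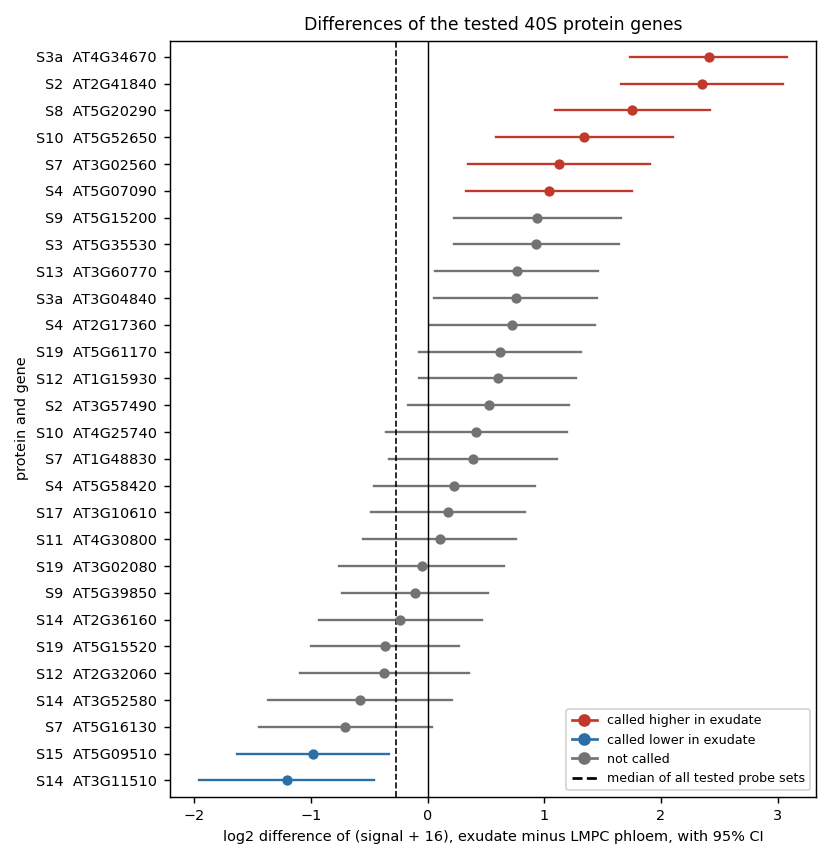
Log2 differences of signal + 16, exudate minus LMPC phloem, of the 28 tested 40S protein genes with 95% confidence intervals from limma, sorted by size, with the calls in colour and a dashed line at the median of all tested probe sets (-0.27). The 6 called higher run between 1.04 and 2.41, and the 2 called lower are an S15 and an S14 gene.

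How many genes passed depended on how the arrays were put on a common scale. After quantile normalization 11 of the 28 were called higher and 2 lower, beside 12.9% and 12.4% of all tested probe sets. Median centring gave 15 higher and 0 lower, beside 15.2% and 8.5%. Scaling to the hybridization controls gave 20 higher and 0 lower, beside 28.3% and 3.67%. The calls over all probe sets moved with them: 33.8% of all calls were higher in exudate as deposited (1303 of 3855), 51.1% after quantile normalization, 64.1% after median centring and 88.5% after scaling to the controls. The median of the 40S genes exceeded that of all tested probe sets by 0.74 as deposited, 0.65 after quantile normalization, 0.92 after median centring and 1.19 after scaling to the controls.

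AT2G41840 (S2), AT4G34670 (S3a) and AT5G20290 (S8) were called higher as deposited and under each of the 14 other settings, with differences of at least 2.04, 1.99 and 1.51. No gene was called lower under all of them. Relative to the median of all tested probe sets, which median centring moved from -0.27 to 0.04, AT3G11510 (S14) stood at -0.94 as deposited and at -0.66 after centring, and AT5G09510 (S15) at -0.72 and -0.49. After centring neither was called (adjusted p = 0.211 and 0.312).

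**Figure D3:**
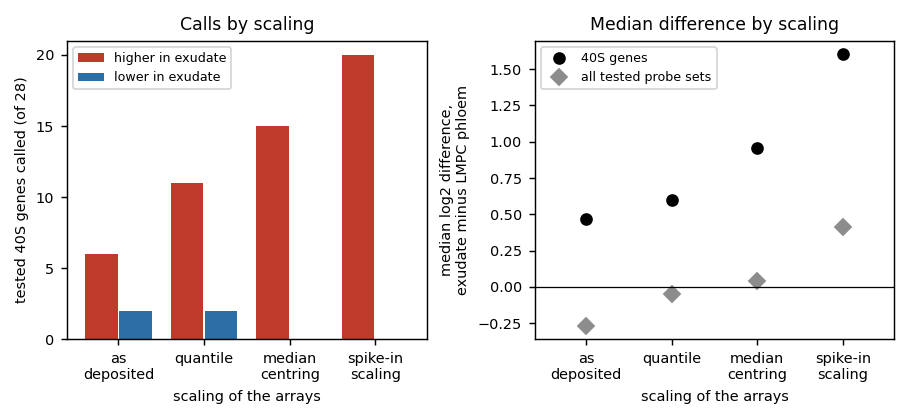
Left, number of the 28 tested 40S protein genes called higher (red) or lower (blue) in exudate under 4 scalings of the arrays. Right, median log2 difference, exudate minus LMPC phloem, of these genes (black) and of all tested probe sets (grey), where the black points lie above the grey ones under each of the 4 scalings.

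Paralogs of 1 protein were compared within each array, as the difference of their log2(signal + 16) values. The scale of an array cancels there for bright genes, but the added 16 leaves an effect of scale for pairs with a dim gene. After scaling to the hybridization controls, for instance, the change described below was 2.23 in place of 1.83 for the S2 pair and 1.43 in place of 1.05 for the S9 pair. The level of a probe set depends on its probes, so only the change of this ratio between exudate and LMPC phloem was read. Genes of a pair have closely related sequences, and whether the probes of one also bound the transcript of the other was not tested.

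There were 17 pairs of tested paralogs, from 9 proteins. In 11 pairs the ratios of the 3 exudate arrays lay all on one side of the ratios of the 3 LMPC arrays, and each of the 9 proteins had at least 1 such pair. With 3 against 3 arrays the exact two-sided permutation test gives no p below 0.1, which these 11 pairs reached (adjusted over the 17 pairs, p = 0.155), so no pair could pass. Of all pairs of 2 tested genes on the array, 37.5% were without overlap in the same measure, and of all 378 pairs of tested 40S genes 58.2%. The 64.7% of the paralog pairs was thus near that of any 2 of these genes. No such share was computed for the count of proteins, where S4, S7, S14 and S19, with 3 tested genes each, had several pairs.

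The largest changes of ratio were in S2, S7 and S3a. The log2 ratio of AT2G41840 over AT3G57490 (S2) was 4.01, 3.58 and 3.59 in exudate against 2.02, 2.16 and 1.52 in LMPC phloem, a change of 1.83. For S3a, AT3G04840 over AT4G34670 gave -0.86, -0.38 and -0.83 in exudate against 0.71, 0.78 and 1.41 in LMPC phloem, a change of -1.65. In both pairs the gene called higher in exudate gained on its paralog there. The change of a pair is the difference of the single-gene differences given above, so it is not separate evidence.

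The S7 ratio of AT3G02560 over AT5G16130 was 1.08, 0.50 and 0.67 in exudate against -0.78, -1.66 and -0.79 in LMPC phloem, a change of 1.83. AT1G48830 over AT5G16130 moved the same way, by 1.09. Relative to either paralog, AT5G16130 was thus lower in exudate than in LMPC phloem.

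Smaller changes without overlap were seen in the S9 pair (AT5G15200 over AT5G39850, 1.05), the S12 pair (AT1G15930 over AT2G32060, 0.97) and the S10 pair (AT4G25740 over AT5G52650, -0.92). In S14, AT2G36160 over AT3G11510 changed by 0.97, and in S4, AT5G07090 over AT5G58420 by 0.81. In S19, both AT3G02080 (-0.67) and AT5G15520 (-0.98) were lower relative to AT5G61170 in exudate. After scaling to the hybridization controls the S19 pair of AT3G02080 and AT5G61170 overlapped. The other 10 pairs stayed without overlap under each scaling and each pseudocount run. For pairs of bright genes, median centring and scaling to the controls could change little, since the scale of an array cancels in the ratio.

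The 6 overlapping pairs changed by -0.73 to 0.50. Among them were AT2G17360 and AT5G07090 of S4 (-0.32), AT2G36160 and AT3G52580 of S14 (0.34, or 0.52 after scaling to the controls) and AT3G02080 and AT5G15520 of S19 (0.31, or 0.62). With 3 arrays per group an overlap does not show that 2 paralogs behaved alike.

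**Figure D4:**
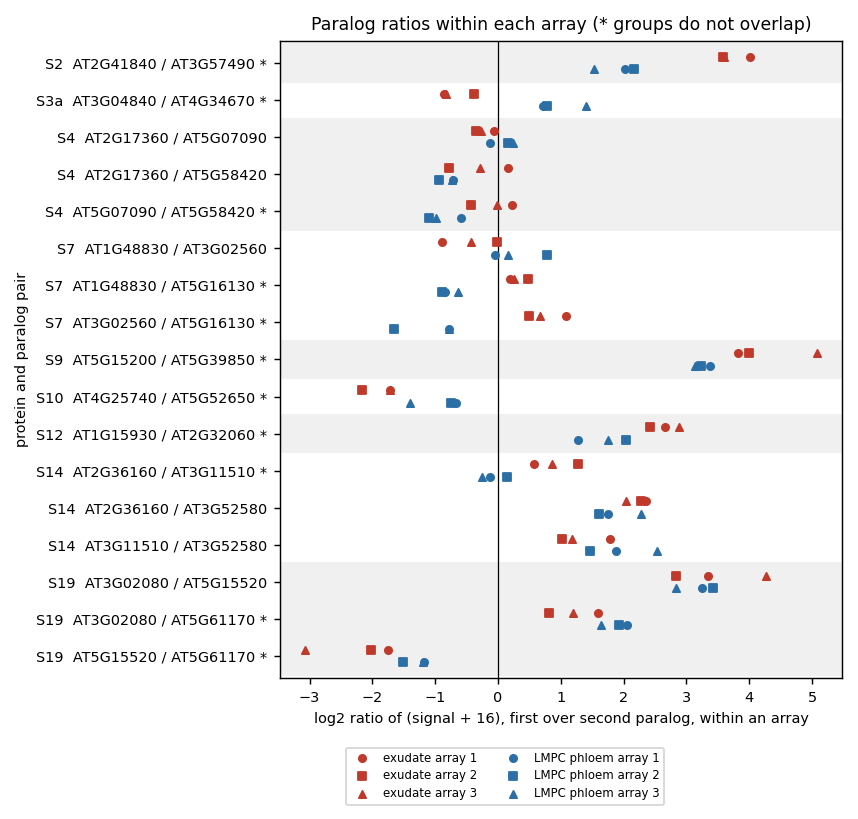
Log2 ratio of (signal + 16), first over second gene, for the 17 pairs of tested paralogs, with 1 point per array, exudate in red above LMPC phloem in blue. The 11 pairs marked with a star have no overlap between the groups, and their group means differ by 0.67 to 1.83.

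Related genes were counted in the same fit. The small subunit proteins outside the list, S20 to S30 and RACK1, had 13 tested genes of 34, with 1 called higher, 5 lower and a median of -0.66. AT2G16360 (S25) was called lower, with 6.8, 9 and 0.7 in exudate against 58.1, 106 and 144 in LMPC phloem. It passed the filter only with the LMPC arrays, so the filter favoured that direction and no size is given. AT4G34555 (S25) differed by -1.76 (limma, adjusted p = 0.000935). AT4G39200, also an S25 gene, differed by 1.41 (limma, adjusted p = 0.0215), although its groups overlapped. Whether these 13 genes differ from the 28 was not tested. Large subunit proteins had 14 higher and 3 lower of 61 tested and a median of 0.22. The smallest adjusted p belonged to AT2G37190 (L12, 2.30) and AT3G16780 (L19) among the higher and to AT4G10450 (L9) among the lower. AT3G16780 had 59.9, 87.6 and 117 in exudate against 3.01, 10.3 and 1.25 in LMPC phloem, where only 1 array exceeded its 40th percentile. It entered the test through exudate, so the filter favoured that direction and no size is given. AT4G10450 had 25.8, 0.6 and 15 in exudate against 52.7, 52.7 and 63.8 in LMPC phloem. It passed the filter only with the LMPC arrays, so no size is given for it either.

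Of the 5 tested translation factors of 35, AT5G12110 (elongation factor eEF1B) was called higher and AT5G35680 (initiation factor eIF1A, -0.99) lower. AT5G12110 likewise entered the test through exudate, with 25.9, 21.8 and 44.6 there against 15.2, 1.61 and 2.15 in LMPC phloem. Ribosome biogenesis, with 4 tested of 10, had 1 higher, AT3G03920 (a GAR1 protein of RNA pseudouridylation, 1.01). RAPTOR1 (AT3G08850), a partner of the TOR kinase that controls ribosome production, was the 1 tested gene of the TOR and S6 kinase list. Its signal was 1.3, 12.7 and 1.4 in exudate against 45.0, 39.3 and 12.8 in LMPC phloem, and it entered the test through LMPC phloem, so its call as lower was also tied to the filter. The 2 tested nuclear genes for small subunit proteins of the plastid ribosome were not called.

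Cell type markers were counted in the same fit. Of 12 mesophyll and photosynthesis genes 3 were measured, with a summed signal of 924 to 1805 in exudate against 183 to 745 in LMPC phloem. All 3 (RCA, LHCB4.1 and LHCB4.2) were called higher. For RCA (limma, adjusted p = 0.0484) and LHCB4.1 the groups overlapped, through LMPC array 1. Of 17 companion cell and sieve element genes 4 were measured (CLE41, CLE44, SWEET11 and OPS), with a sum of 113 to 184 in exudate against 212 to 446 in LMPC phloem. CLE44 was called higher, and CLE41 and SWEET11 lower. OPS had 0.6, 0.8 and 4.9 in exudate against 2.83, 2.01 and 23.4 in LMPC phloem and did not pass the filter. GUT2, the measured xylem gene of 7, summed to 16.0 to 33.5 in exudate against 64.9 to 80.6 in LMPC phloem and was called lower, AUR1, that of 4 dividing cell genes, was not called, and no epidermis gene was measured. None of these markers was at 0 on any array, which does not show that each was detected. Their part in the results on the 40S genes was not tested.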

How the data were processed

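Phloem exudate and LMPC phloem were compared on 3 arrays each, grouped by the sample titles. The deposited intensity values are linear MAS5 signals, 1 per probe set, with MAS5 named in the submitters' processing notes without a version. A scaling target and a genome build: not given in the sources used here. The extract protocol in the labels of the LMPC samples speaks of exudate. The titles were followed instead.

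Of 22810 probe sets, 64 were controls. The platform annotation gave 1 gene to 13513 and several to 503, which were not named. Genes were matched to RefSeq (TAIR10.1) by gene identifier. A gene with several probe sets was to be measured by the one with the highest mean over the 6 arrays. Limma 3.58.1 in R 4.3.3 (lmFit, eBayes, no covariate) was run on log2(signal + 16) of 15356 probe sets, those over the 40th percentile of an array in 3 or more cases, with Benjamini-Hochberg adjustment over all of them and a threshold of 0.05. The fit was tested on simulated data. Alternatives were 3 other scalings, other pseudocounts, no filter, a replicate block, an eBayes trend and leaving out each array. Paralog ratios were compared by exact permutation tests.

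The members, the lists of related and marker genes, the tests and the alternatives were chosen with earlier results of these data known. Every measured member is named, and from each related list up to 3 called genes, ranked by adjusted p: 2 of the direction with more calls, 1 of the opposite one. No sequences are shown. The number of arrays limits the precision.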

Additional observations from a re-analysis of the deposited data

How the results depend on the processing

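Counts of 40S genes called higher in exudate, 6 as deposited, moved to 11 with quantile normalization, 15 with median centring and 20 with scaling to the hybridization controls. The share of all tested probe sets called higher was 8.49% as deposited and 12.9%, 15.2% and 28.3% under these scalings. The counts were 3 with a pseudocount of 1 and 3 when no filter was set, beside 6.19% and 4.27% of all probe sets. When 1 array was left out they lay between 3 and 9 (3 without LMPC array 2, 9 without exudate array 2), beside 5.25% to 8.07%. The 40S genes called lower numbered 2 as deposited, beside 16.6% of all tested probe sets. They were 0 with median centring, scaling to the controls and a pseudocount of 1, beside 8.5%, 3.67% and 12.9%. Without the filter and with a trend in eBayes they were 1 each, beside 9.9% and 17.4%. When 1 array was left out they lay between 0 and 3, beside 10.6% to 18.5%. Lower calls were 0 without exudate array 2 or LMPC array 1, and 1 without exudate array 1 or LMPC array 2 or 3. The median difference of 0.47 became 1.60 after scaling to the controls, 0.96 with median centring, 0.60 with quantile normalization, 0.55 with a pseudocount of 1 and 0.31 with one of 64, and lay between 0.15 (without exudate array 3) and 0.64 without 1 array. Calls over all probe sets, 3855 as deposited, lay between 2359 (without exudate array 1) and 3296 without 1 array. With the arrays scaled to those controls all 28 differences were positive, among them AT2G36160 (1.08), AT3G11510 (0.0769), AT5G09510 (0.18) and AT3G02080 (1.28), whose sign turned with a call lost or gained. Scaling shifts all genes of an array together, and other causes were not tested. Over the 28 genes and 14 settings, 327 of 392 results kept their side of the threshold and, where called, their direction, 30 lost a call, 31 gained one and 4 turned. The replicate block gave 6 higher and 2 lower calls of 40S genes and 3418 over all probe sets. Arrays with the same number did not deviate together (correlations of -0.004, -0.02 and -0.07). With 3 arrays per group, this cannot tell whether they shared plants or a run. The 11 paralog pairs without overlap became 10 after scaling to the controls, 12 without the filter, and 12 to 13 without 1 array, a setting chosen after seeing the data, as was the brightness range. Each member had 1 probe set, none of the type shared by several transcripts, so both alternatives on probe sets gave the values above.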
